A study of Homo sapiens with 6 samples.

Results

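The comparison described here set the mean of 2 edited K562 lines against Control and asked which genes changed in the same direction in both lines. It used all 6 labelled libraries of the series, 2 of Control (genotype WT), 2 of the PAX6_Tarzan Knockout line (PAX6_Ta KO) and 2 of the PBX3_Claudia Knockout line (PBX3_Cl KO). K562 is a human erythroleukaemia line that grows in suspension and carries the BCR-ABL fusion. Both knockout lines were single clones, made by transfection of a Cas9 plasmid with a pair of guide RNAs, puromycin selection and picking of clones checked by PCR and Sanger sequencing. The Control label does not name cells that went through the same steps with guides against another sequence. Loss of the elements and transfection, selection or cloning therefore cannot be told apart in any difference described below. Since the lines lost different elements, on different chromosomes, the comparison gives what they had in common against Control and says nothing of either element alone.

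Ultra-conserved elements are non-coding stretches of DNA that have stayed almost the same across vertebrates, and many act as enhancers or silencers of genes nearby. K562 cells express embryonic and fetal globins and can be driven towards red cell or megakaryocyte fates. The integrated stress response, which recurs in the results, is a pathway in which phosphorylation of a translation factor favours synthesis of the transcription factor ATF4, and ATF4 then turns on genes of amino acid synthesis, amino acid transport and stress signalling.

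The guide pairs that define the 2 lines are shown because they are the sole designed difference between them. Each is written 5′ to 3′ with the PAM, the short motif that Cas9 needs beside its target, in capitals.
PAX6_Ta, guide under the U6 promoter: gctttctgtgcggttgtggaTGG
PAX6_Ta, guide under the H1 promoter: caagtccattccttccccagTGG
PBX3_Cl, guide under the U6 promoter: ctcagtactgcaaagactgtGGG
PBX3_Cl, guide under the H1 promoter: gcttgtacagttaagcatgaTGG
On GRCh37, element PAX6_Ta (434 bp) lay at chr11:31810437-31810870, where PAX6 and ELP4 overlap on opposite strands, and its guides matched at 31809917 to 31809939 (minus strand) and 31811316 to 31811338 (plus strand). Element PBX3_Cl (222 bp) lay at chr9:128457564-128457785 in an intron of MAPKAP1, and its guides matched at 128456987 to 128457009 (plus strand) and 128457970 to 128457992 (minus strand). The guides' cut sites were 1410 bp apart for PAX6_Ta and 972 bp apart for PBX3_Cl. Exon sequence of ELP4 and PAX6 lay between the PAX6_Ta cuts, and no exon lay between the PBX3_Cl cuts.

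The libraries held between 45912044 and 60908470 read counts, and 20746 of the 52088 entries of the count table had enough reads to be tested. Replicates of a group were more alike than libraries of different groups, with Pearson's r of log2 CPM across genes from 0.981 to 0.990 within groups and from 0.945 to 0.961 between them. The sources do not say whether the replicates came from separate cultures, so every p-value rests on how far these libraries spread, and that spread may be technical only. Levels are given as CPM, the counts of a gene divided by the TMM-scaled library total and expressed on a common scale, or, where a gene was close to 0, as read counts. Changes are log2 fold changes from edgeR's quasi-likelihood fit, with their standard errors (SE) and Benjamini-Hochberg adjusted p-values over all tested genes.

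In the averaged contrast 1228 genes were called higher (5.92% of those tested) and 624 lower (3.01%) at an adjusted p under 0.05. Independently of any test, all 4 knockout libraries lay above both Control libraries for 2485 genes (12%) and below both for 2083 genes (10.0%). Genes that met both conditions are called shared here. They numbered 1096 higher (5.28%) and 469 lower (2.26%). The remaining calls, 132 higher and 155 lower, had at least 1 knockout library within or beyond the Control range, and in 32 and 85 of them the lines' fold changes had opposite signs. One example was ABCB1, a drug efflux pump, which stood at 19.5 and 6.26 CPM in Control, 0.645 and 0.285 CPM in PAX6_Ta KO and 42.6 and 28.7 CPM in PBX3_Cl KO. With the replicate number as a block the genes called lower rose from 624 to 1072 and the shared lower genes from 469 to 756. Without PBX3_Cl KO replicate 1 they were 992 and 840, and without Control replicate 2 the genes called higher were 791. Treating the 4 knockout libraries as 1 group, which puts the differences between the lines into the spread, left 227 genes called higher and 80 lower, all of them shared.

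The median Control level of shared higher genes was 0.741 CPM, against 4.58 CPM over all tested genes, and their median knockout level was 4.70 CPM. A low Control level follows in part from the shared rule, which asks that every knockout library lie above both Control libraries. The filter on low counts also let in genes with reads in the knockout libraries only. Whether shared higher genes were low in Control beyond the effect of rule and filter was not tested. Of the 1096, 583 were under 1 CPM in Control, and 894 (81.6%) were protein-coding against 64.9% of all tested genes. Shared lower genes had a median of 7.63 CPM in Control and 2.21 CPM in the knockout libraries, an order that the shared rule sets. The median size of the averaged log2 fold change was 2.09 for shared higher and 1.72 for shared lower genes. A log2 fold change of at least 1 in both lines was reached by 754 shared higher and 240 shared lower genes, and one of at least 2 by 410 and 100.

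The size of a shared change was often unequal between the lines. The direct test of PAX6_Ta KO against PBX3_Cl KO called 12% of all tested genes. Among shared higher genes it called 319 (29.1%), of which 176 had the larger rise in PAX6_Ta KO and 143 in PBX3_Cl KO. Among shared lower genes it called 162 (34.5%), 80 with the larger fall in PAX6_Ta KO and 82 in PBX3_Cl KO. Without PAX6_Ta KO replicate 1 the 481 shared genes that also differed between the lines became 303.

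**Figure D1:**
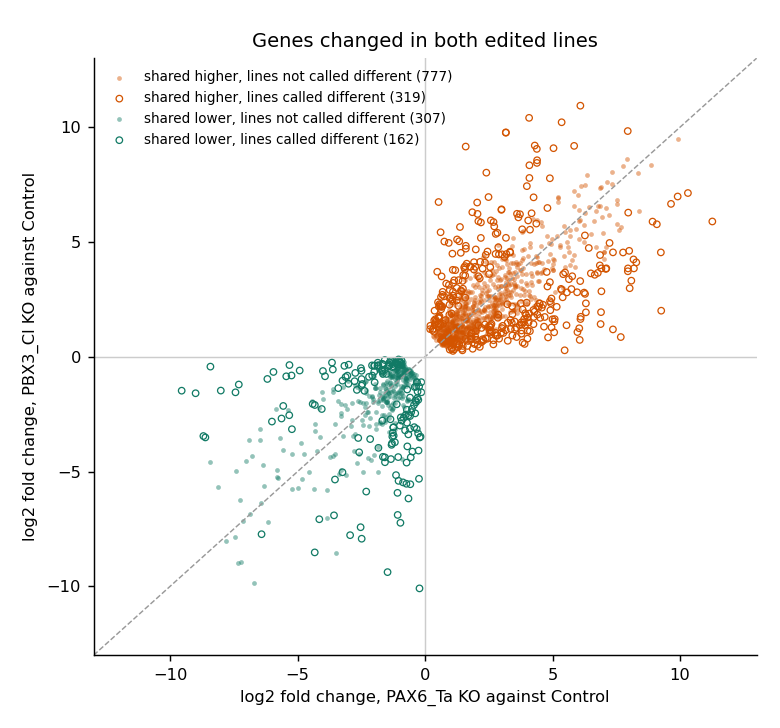
Fitted log2 fold change against Control of the shared genes in PAX6_Ta KO (x axis) and in PBX3_Cl KO (y axis). Each point is 1 gene, the 1096 shared higher genes are orange and the 469 shared lower genes green, open circles mark genes called different between the lines (319 and 162), and the dashed line marks equal change. All points lie in 2 quadrants because the definition of a shared gene puts them there, and values beyond about 8 come from genes near 0 counts in a group.

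The genes that host or lend their names to the elements were read first. The count table does not measure the deleted elements themselves. PAX6, which encodes a transcription factor needed for the eye, stood at 9.66 and 6.20 CPM in Control, 13.4 and 10.2 CPM in PAX6_Ta KO and 9.82 and 8.73 CPM in PBX3_Cl KO (log2 fold change 0.40, SE 0.241, adjusted p = 0.422), so that the groups were not told apart at this precision. PBX3, a homeodomain partner of HOX proteins, stood at 0.883 and 0.970 CPM in Control, 5.87 and 5.20 CPM in PAX6_Ta KO and 5.33 and 6.11 CPM in PBX3_Cl KO (2.60, SE 0.293, adjusted p = 1.1e-04). PBX3 thus rose to about the same level in both lines, whichever element was targeted. ELP4 and MAPKAP1, which the elements overlap, were at 0.71 (SE 0.214, adjusted p = 0.0613) and 0.12 (SE 0.174, adjusted p = 0.798).

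Some genes were silent in Control and expressed in all 4 knockout libraries. No read was counted in either Control library for 61 shared higher genes, and 13 of them had at least 10 counts in each knockout library. ZNF711, a zinc finger transcription factor gene (chromosome X, 84498997 to 84528368, GRCh37), reached 115 and 130 reads in the PAX6_Ta KO libraries and 91 and 70 in those of PBX3_Cl KO. Against a floor of 3 counts over the Control group it was at least 78.5-fold higher (adjusted p = 2.2e-05). CDH12, a cadherin of neurons (chromosome 5, 21750782 to 22853453), reached 38 and 23 reads in the PAX6_Ta KO libraries and 139 and 63 in those of PBX3_Cl KO, at least 50.8-fold higher (adjusted p = 3.2e-04). GBX2, a homeobox gene of the developing brain, reached 127 and 112 reads in the PAX6_Ta KO libraries and 14 in each PBX3_Cl KO library, at least 51.6-fold higher (adjusted p = 1.3e-04). For these 3 genes a gap between Control and knockout libraries follows from their choice, at 0 counts in Control and at least 10 in each knockout library. The lines differed from each other for CDH12 and GBX2 but were not called different for ZNF711.

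The non-coding RNA ZFHX4-AS1 reached 167 and 149 reads in the PAX6_Ta KO libraries and 21 and 10 in those of PBX3_Cl KO, and none in Control, at least 67.1-fold higher. It is antisense to its partner gene, and whether the counting used strand is not given, so reads of the pair cannot be told apart. LINC00879 and IGHE, the constant region of the IgE heavy chain, were at least 36.5-fold and 26.5-fold higher. LINC00879 had 50, 67, 33 and 39 counts and IGHE 52, 28, 25 and 32, PAX6_Ta KO before PBX3_Cl KO. Neither was called different between the lines.

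The largest shared rises beyond these were seen in genes of unrelated roles. CYB5R2, a cytochrome b5 reductase on 11p, stood at 0.183 and 0.0990 CPM in Control, 39.99 and 33.2 CPM in PAX6_Ta KO and 12.5 and 10.2 CPM in PBX3_Cl KO, a log2 fold change of 7.12 (SE 0.335, adjusted p = 1.2e-07). JDP2, an AP-1 family repressor, had 0 and 1 count in Control, 571 and 349 in PAX6_Ta KO and 43 and 62 in PBX3_Cl KO, a ratio of scaled counts of 595 (exact 95% interval 106 to 23505). KIF1A, a kinesin that carries synaptic vesicle precursors in neurons, had 1 count in each Control library, 65 and 76 in PAX6_Ta KO and 1221 and 2419 in PBX3_Cl KO. JDP2 was higher in PAX6_Ta KO and KIF1A in PBX3_Cl KO, so that the lines shared the direction but not the level. With the median of its arm taken out the change of CYB5R2 was 6.5.

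Other genes of this group were not called different between the lines. CPZ, a carboxypeptidase, had 3 and 1 counts in Control, 127 and 132 in PAX6_Ta KO and 103 and 113 in PBX3_Cl KO (log2 fold change 6.02, SE 0.516, adjusted p = 1.4e-05), and its change was 6.80 without Control replicate 1. SLC6A19, a transporter of neutral amino acids, had 1 and 0 counts in Control, 62 and 77 in PAX6_Ta KO and 95 and 80 in PBX3_Cl KO, a ratio of 182 (95% interval 32.5 to 7216). PGAP4, which modifies GPI anchors, went from 0 and 2 counts to 57, 90, 182 and 140. The zinc finger gene ZNF880 went from 0 and 1 counts to 78, 80, 54 and 37, and the pseudogene ANKRD20A19P from 1 and 0 to 104, 108, 52 and 51. The ANKRD20A family holds near-identical copies, so reads of ANKRD20A19P may belong to another member. The intervals cover counting error only.

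**Figure D2:**
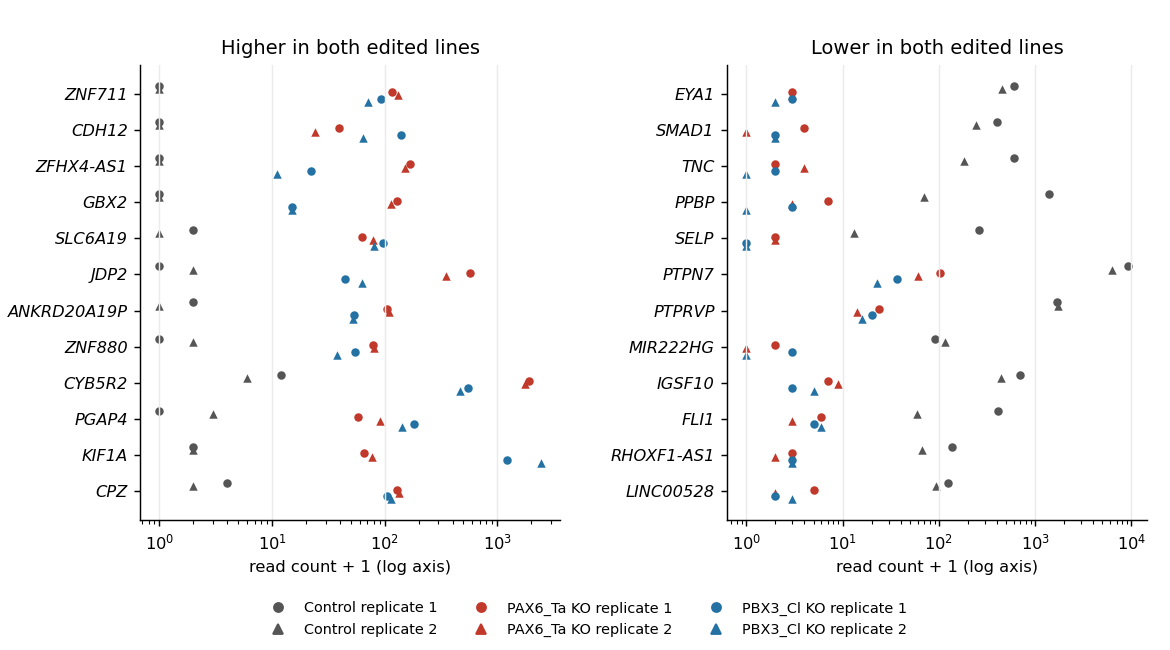
Read count plus 1 (log axis) in each of the 6 libraries for the 12 genes in each direction with the largest smaller-of-2-lines fold change. Control is grey, PAX6_Ta KO red and PBX3_Cl KO blue, with circles for replicate 1 and triangles for replicate 2. For the genes on the left the Control libraries have between 0 and 11 counts, and for those on the right the knockout libraries have between 0 and 101.

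Shared rises were also seen among abundant genes, at 100 CPM or more in Control or in both lines. SEL1L3 stood at 43.3 and 32.3 CPM in Control, 134 and 88.2 CPM in PAX6_Ta KO and 129.6 and 95.9 CPM in PBX3_Cl KO (1.56, SE 0.232, adjusted p = 9.0e-04). The lines were not called different for SEL1L3 (-0.02). The abundant genes GDF15, PSAT1 and HBA2 are described with their gene lists.

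The strongest shared fall among abundant genes was in PTPN7, a tyrosine phosphatase of blood cells that acts on MAP kinases (chromosome 1, 202116141 to 202130716). It stood at 152 and 124 CPM in Control, 2.10 and 1.14 CPM in PAX6_Ta KO and 0.817 and 0.480 CPM in PBX3_Cl KO, a log2 fold change of -7.07 (SE 0.261, adjusted p = 3.8e-08). Its neighbour PTPRVP, a receptor phosphatase pseudogene (chromosome 1, 202137179 to 202158583), fell with it, from 28.3 and 34.1 CPM to 0.479, 0.247, 0.431 and 0.327 CPM (-6.39, SE 0.266, adjusted p = 5.1e-08). The adjacent histone genes H2AC1 and H2BC1, known from testis, lie head to head on chromosome 6 (25723625 to 25726790 and 25727005 to 25727573). H2AC1 stood at 227 and 129.6 CPM in Control, 28.7 and 17.8 CPM in PAX6_Ta KO and 1.02 and 0.611 CPM in PBX3_Cl KO (-5.36, SE 0.277, adjusted p = 2.4e-07). H2BC1 stood at 148 and 183 CPM in Control, 29.1 and 28.2 CPM in PAX6_Ta KO and 1.16 and 0.764 CPM in PBX3_Cl KO (-4.98, SE 0.192, adjusted p = 3.8e-08). Both histone genes fell further in PBX3_Cl KO than in PAX6_Ta KO.

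Smaller falls of abundant genes were seen in GPSM3, a modulator of G protein signalling, the secreted glycoprotein RELN and the pseudokinase TRIB2. GPSM3 fell by 2.23 (SE 0.231, adjusted p = 6.4e-05), from 137 and 93.7 CPM in Control to between 14.0 and 45.3 CPM. RELN fell by 1.75 (SE 0.219, adjusted p = 2.5e-04), from 451 and 274 CPM to between 81.5 and 122 CPM. TRIB2 fell by 1.23 (SE 0.159, adjusted p = 3.1e-04), from 181 and 160.1 CPM to between 63.8 and 87.1 CPM.

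Several developmental and matrix genes were all but lost in both lines. EYA1, a phosphatase and transcriptional co-activator, had 595 and 452 counts in Control, 2 and 2 in PAX6_Ta KO and 2 and 1 in PBX3_Cl KO (log2 fold change -7.92, SE 0.364, adjusted p = 1.0e-07). SMAD1, which carries BMP signals to the nucleus, had 397 and 240 counts in Control and 3, 0, 1 and 1 in the knockout libraries (-7.65, SE 0.511, adjusted p = 2.0e-06). Tenascin C, TNC, had 599 and 183 counts in Control and 1, 3, 1 and 0 in the knockout libraries (-8.15, SE 0.587, adjusted p = 3.4e-06). The change of TNC was -7.23 without Control replicate 1 and -9.40 without PBX3_Cl KO replicate 1, and that of SMAD1 was -9.51 without PAX6_Ta KO replicate 1. IGSF10 had 687 and 441 counts in Control and 6, 8, 2 and 4 in the knockout libraries. The non-coding RNAs RHOXF1-AS1 (137 and 66 counts in Control) and LINC00528 (123 and 93) had at most 2 and 4 counts in a knockout library. LINC02098 (21 and 18 counts in Control) and the protocadherin PCDHA11 (18 and 14) had none in any knockout library, and were at least 22.4-fold and 18.4-fold lower.

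MIR222HG, the host transcript of the microRNAs miR-221 and miR-222 (chromosome X, 45604638 to 45629677, GRCh37), had 89 and 116 counts in Control, 1 and 0 in PAX6_Ta KO and 2 and 0 in PBX3_Cl KO. The ratio of Control to knockout was 118 (95% interval 39.8 to 576, adjusted p = 3.0e-05). Mature microRNAs are too short for these libraries and were not measured. Their sequences (RefSeq, GRCh38.p14) are printed with the seed, bases 2 to 8, in capitals, and their targets were not examined.
hsa-miR-221-3p: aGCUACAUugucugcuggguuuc
hsa-miR-222-3p: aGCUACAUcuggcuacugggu
hsa-miR-222-5p: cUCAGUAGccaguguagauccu
The 2 3p microRNAs share their seed, GCUACAU, which the 5p microRNA does not.

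Members of the gene lists named below that lie outside the rule for named genes, such as ATF4, TRIB3, CHAC1, ASNS, GATA1 or TUBB1, were chosen after their values were seen, as were PBX3 and ABCB1. The ATF4 targets of the integrated stress response were the gene list with the largest share of shared higher genes. Of 35 tested members 17 were shared higher (48.6%, against 5.28% of all tested genes). None was called lower by edgeR, by DESeq2 or at an unadjusted p under 0.05 (19 were higher at that limit). In 21 members, against 12% of all tested genes, all 4 knockout libraries were above both Control libraries. The median log2 fold change of the list was 0.76 in the averaged contrast, 0.75 in PAX6_Ta KO and 0.79 in PBX3_Cl KO, against -0.02 over all tested genes. With the knockout libraries as 1 group 8 members were shared higher, and under the other settings between 13 and 18 were. The summed level of the list was 4633 and 4291 CPM in Control, 6833 and 5266 CPM in PAX6_Ta KO and 6055 and 6327 CPM in PBX3_Cl KO.

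The enzymes of serine synthesis rose together. PHGDH, which catalyses the first step, stood at 10.7 and 4.87 CPM in Control, 232 and 140.0 CPM in PAX6_Ta KO and 96.9 and 103 CPM in PBX3_Cl KO, a log2 fold change of 4.13 (SE 0.349, adjusted p = 1.3e-05). PSAT1, the second enzyme, stood at 62.6 and 60.5 CPM in Control, 225 and 157 CPM in PAX6_Ta KO and 166 and 132 CPM in PBX3_Cl KO (1.45, SE 0.205, adjusted p = 6.2e-04). PSPH, the last enzyme, stood at 18.2 and 17.3 CPM in Control, 50.4 and 38.4 CPM in PAX6_Ta KO and 39.9 and 32.1 CPM in PBX3_Cl KO (1.17, SE 0.192, adjusted p = 0.0019). The change of PHGDH was 4.81 without Control replicate 1. That the lowest knockout library was above the highest Control library in all 3 genes follows from the shared rule. PSPH lies on 7p, and its call was lost with the median of that arm taken out (0.55). The mitochondrial folate enzyme ALDH1L2 rose from 3.50 and 2.46 CPM to 30.96 and 20.7 CPM in PAX6_Ta KO and to 58.6 and 62.7 CPM in PBX3_Cl KO (3.73, SE 0.258, adjusted p = 2.5e-06), and more in PBX3_Cl KO.

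The secreted and signalling members of the list moved as far. STC2, the secreted stanniocalcin 2, stood at 1.38 and 1.49 CPM in Control, 40.7 and 27.1 CPM in PAX6_Ta KO and 40.9 and 40.8 CPM in PBX3_Cl KO (4.70, SE 0.257, adjusted p = 4.2e-07). ADM2, a peptide of the adrenomedullin family, rose by 3.04 (SE 0.330) from 1.12 and 1.31 CPM. The cytokine GDF15 stood at 48.2 and 22.2 CPM in Control, 259 and 201 CPM in PAX6_Ta KO and 159 and 133 CPM in PBX3_Cl KO (2.38, SE 0.294, adjusted p = 2.3e-04). CHAC1, which degrades glutathione, rose from 5.93 and 3.54 CPM to 42.1, 21.2, 37.7 and 39.8 CPM (2.88, SE 0.314, adjusted p = 8.9e-05). The change of GDF15 was 3.04 without Control replicate 1. None of these 4 genes was called different between the lines.

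Members with smaller rises, singled out after their values were seen, included genes of amino acid metabolism. ASNS, asparagine synthetase, rose by 1.17 (SE 0.218), WARS1, the cytosolic tryptophan tRNA ligase, by 1.18 (SE 0.203), GPT2, an alanine aminotransferase, by 1.62 (SE 0.233), and PCK2, the mitochondrial PEP carboxykinase, by 1.04 (SE 0.217). DDIT4, an inhibitor of mTOR complex 1, rose by 1.39 (SE 0.263). The calls with the largest adjusted p were those of ATF5, NUPR1, VEGFA and SESN2, with log2 fold changes of 1.23, 2.61, 0.76 and 0.77 and adjusted p of 0.0282, 0.0484, 0.0237 and 0.0447. NUPR1 had 9 and 0 counts in Control, and its fitted change without Control replicate 1 was 7.596, which is set against 0 counts and gives no bound. Without Control replicate 2 the calls of NUPR1 (1.71), VEGFA (0.69), SESN2 (0.54) and PCK2 (0.86) were lost, without Control replicate 1 that of VEGFA (0.83), without PAX6_Ta KO replicate 1 those of VEGFA (0.65) and SESN2 (0.60), without PBX3_Cl KO replicate 1 those of NUPR1 (2.46) and SESN2 (0.77), and without PBX3_Cl KO replicate 2 those of NUPR1 (2.72) and SESN2 (0.74).

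Other known members did not pass the test. ATF4 itself stood at 332 and 249 CPM in Control, 393 and 275 CPM in PAX6_Ta KO and 380.2 and 362 CPM in PBX3_Cl KO (0.28, SE 0.206, adjusted p = 0.550). The Control and knockout libraries overlapped for ATF4, which is controlled largely at translation. DDIT3, which encodes CHOP, was at 0.47 (SE 0.229, adjusted p = 0.282), TRIB3 at 0.84 (SE 0.244, adjusted p = 0.0516) and ATF3 at -0.17 (SE 0.259, adjusted p = 0.823). The amino acid transporters SLC7A5, SLC3A2, SLC7A1, SLC1A5 and SLC7A11 were not called (0.39, 0.28, 0.41, 0.41 and 0.52). Their adjusted p were 0.677, 0.459, 0.390, 0.277 and 0.0757. The folate enzymes MTHFD2 and SHMT2 were not called either (0.07 and 0.30, adjusted p = 0.910 and 0.397). No member of the separate list of 23 unfolded protein response genes was called in either direction by edgeR or DESeq2. At an unadjusted p under 0.05, 4 of them were higher and 1 lower, and their median was 0.11.

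**Figure D3:**
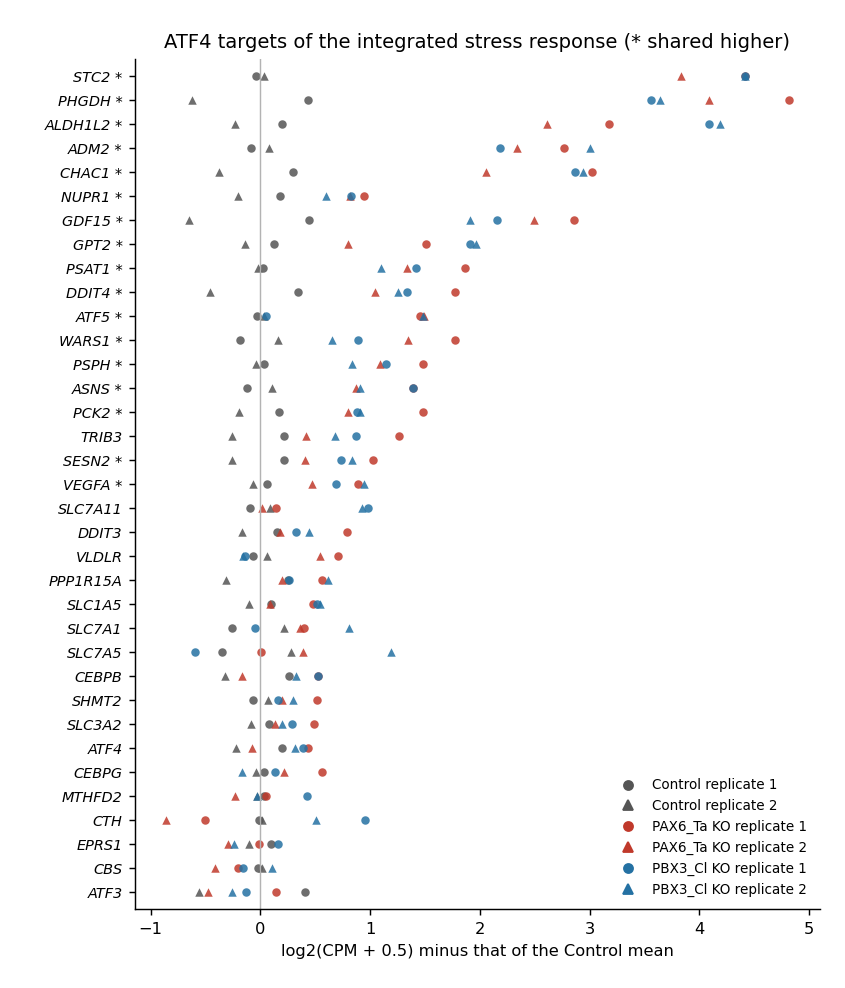
Level of the 35 tested ATF4 targets in each library as log2(CPM + 0.5) minus that of the Control mean (x axis), 1 gene per row, with Control grey, PAX6_Ta KO red, PBX3_Cl KO blue, circles for replicate 1 and triangles for replicate 2. An asterisk marks the 17 shared higher genes. PHGDH, STC2 and ALDH1L2 stand furthest from Control in both lines, and ATF4 and ATF3 overlap with it.

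Binding of ATF4 with a C/EBP partner is known to use a composite motif, searched here on both strands as TGATGNAA in the RefSeq promoters (GRCh38.p14, from 250 bases before to 50 after the gene start). It was present in 3.67% of all 27305 promoters, in 1.9% of the 11878 matched to tested genes, in 3.42% of the 732 promoters matched to shared higher genes and in 2.33% of the 300 matched to shared lower genes. Of the 12 promoters matched to shared higher members of the ATF4 list, 2 held it (16.7%), and 3 of 16 matched to the other members did (18.8%). A match says that the letters occur and not that a factor bound there. The stretches of the 2 shared higher members are printed with the match in capitals, on the strand of the gene, CHAC1 at chr15:40953250-40953281 (plus strand, match reversed) and ASNS at chr7:97872457-97872488 (minus strand).
CHAC1: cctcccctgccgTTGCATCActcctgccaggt
ASNS: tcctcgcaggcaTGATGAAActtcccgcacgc

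Of the megakaryocyte and platelet genes 17 were tested, 5 of which were shared lower and 1 shared higher, with a median of -0.43. Over all tested genes 2.26% were shared lower and 5.28% shared higher. PPBP, a platelet chemokine, had 1381 and 69 counts in Control, 6 and 2 in PAX6_Ta KO and 2 and 0 in PBX3_Cl KO (log2 fold change -8.08, SE 0.975, adjusted p = 1.9e-04). SELP, the platelet adhesion receptor P-selectin, had 261 and 12 counts in Control, 1 and 1 in PAX6_Ta KO and 0 in both PBX3_Cl KO libraries (adjusted p = 0.0014). FLI1, a transcription factor of megakaryocytes, had 408 and 58 counts in Control and 5, 2, 4 and 5 in the knockout libraries (-5.53, SE 0.646, adjusted p = 1.5e-04). PLEK, the platelet protein pleckstrin, had 785 and 87 counts in Control and between 7 and 17 in the knockout libraries (-4.79, SE 0.611). ITGA2B, the integrin alpha chain of platelets, stood at 53.8 and 16.4 CPM in Control, 4.06 and 2.49 CPM in PAX6_Ta KO and 11.05 and 7.18 CPM in PBX3_Cl KO (-2.69, SE 0.367, adjusted p = 5.0e-04).

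These 5 genes were also unequal between the Control replicates, all higher in replicate 1. Without Control replicate 1 the fold changes of PPBP, FLI1, PLEK and ITGA2B were -4.91, -3.74, -2.68 and -1.58, and without Control replicate 2 they were -9.00, -6.31, -5.61 and -3.31, with each call kept, and PPBP was at -9.76 without PBX3_Cl KO replicate 1. Without Control replicate 2 there were 9 shared lower members in place of 5. TUBB1, the tubulin of platelets, went the other way and rose by 1.46 (SE 0.359, adjusted p = 0.0225), from 28.2 and 9.17 CPM to between 30.2 and 71.8 CPM, a change of 2.496 without Control replicate 1 and a call lost without Control replicate 2 (0.87) or PBX3_Cl KO replicate 1 (1.42). In bulk libraries fewer cells of a type and less RNA per cell cannot be told apart. The summed level of the list was 1103 and 978 CPM in Control and between 778 and 1459 CPM in the knockout libraries, so that the groups overlapped, and abundant members such as NFE2 and NBEAL2 were not called (0.21 and -0.12, adjusted p = 0.632 and 0.882).

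Of the erythroid genes 36 were tested, 7 of which were shared higher and 3 shared lower, with a median of 0.20. The shares over all tested genes were 5.28% and 2.26%. The erythroid transcription factors GATA1 and KLF1 were expressed in every group, GATA1 between 219 and 342 CPM and KLF1 between 224 and 391 CPM, and neither was called. Other members were low in every group, such as AHSP (between 0.0625 and 0.454 CPM) and EPB42 (between 1.52 and 2.69 CPM). Alpha globin HBA2 stood at 228 and 189 CPM in Control, 745 and 598 CPM in PAX6_Ta KO and 704 and 1081 CPM in PBX3_Cl KO (1.89, SE 0.241, adjusted p = 2.8e-04). HBA1 rose by 1.07 (SE 0.184), but the 2 alpha genes are near-identical and may share reads. SLC4A1, the anion exchanger band 3, stood at 3.16 and 1.37 CPM in Control, 21.5 and 14.2 CPM in PAX6_Ta KO and 12.6 and 25.9 CPM in PBX3_Cl KO (3.02, SE 0.403, adjusted p = 4.2e-04), a change of 3.76 without Control replicate 1. Delta globin HBD rose by 1.31 (SE 0.215), fetal globin HBG2 by 0.94 (SE 0.215), embryonic globin HBZ by 0.91 (SE 0.231) and beta spectrin SPTB by 0.85 (SE 0.193). Fetal globin HBG1 was not called (0.32, SE 0.219). It stood at 711 and 634 CPM in Control and between 657 and 1078 CPM in the knockout libraries, so the groups overlapped. Whether HBG1 and HBG2 share reads was not tested. Embryonic globin HBE1 was not called either (0.79, SE 0.239, adjusted p = 0.0621). It stood at 2617 and 2056 CPM in Control and between 3005 and 5318 CPM in the knockout libraries. Adult beta globin HBB was between 0.297 and 0.655 CPM in all libraries.

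Among the erythroid genes that fell were carbonic anhydrases, each of which fell mainly in 1 line. CA1 stood at 12.01 and 12.97 CPM in Control, 0.937 and 1.04 CPM in PAX6_Ta KO and 9.48 and 11.4 CPM in PBX3_Cl KO. CA2 stood at 21.6 and 25.98 CPM in Control, 15.9 and 11.7 CPM in PAX6_Ta KO and 2.79 and 2.36 CPM in PBX3_Cl KO. Without Control replicate 1 the calls of HBG2 (1.01) and SPTB (0.85) were lost, and without Control replicate 2 those of HBG2 (0.87), HBZ (0.60) and SPTB (0.83). The shared higher members numbered 4 without Control replicate 2 and 2 with the knockout libraries as 1 group. HBD and HBG2 lie on 11p and lost their calls with the median of that arm taken out (0.68 and 0.31).

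Few genes of the cell cycle engine were called, which does not show that the others were unchanged. In simulated counts 29.9% of genes changed by a log2 fold of 1 in both lines were called. None of 47 tested DNA replication genes of G1/S and none of 42 DNA repair genes was called in the averaged contrast by edgeR or DESeq2, and 1 of 50 mitosis genes of G2/M was called by edgeR. At an unadjusted p under 0.05 the first list had 1 gene higher and 2 lower, and the second 1 higher and 4 lower. That gene, PIMREG, rose by 3.24 (SE 0.318, adjusted p = 4.1e-05), from 1.30 and 0.693 CPM to between 6.13 and 13.8 CPM. By comparison, 7 of 30 CDK inhibitors and p53 targets were called higher, 5 of them shared, and none lower by either tool (1 at an unadjusted p under 0.05). Over all tested genes 5.92% were called higher and 5.28% were shared higher. CDKN1A, the CDK inhibitor p21, stood at 16.9 and 10.4 CPM in Control, 59.5 and 35.5 CPM in PAX6_Ta KO and 58.8 and 41.1 CPM in PBX3_Cl KO (1.84, SE 0.279, adjusted p = 0.0011). The antiproliferative gene BTG2 rose by 1.27 (SE 0.228) and the ferredoxin reductase FDXR by 1.33 (SE 0.234). The median log2 fold change of this list was 0.13, and the activity of p53 was not measured. SESN2 is on this list, on the mTOR list and among the ATF4 targets. Of 29 mTOR complexes and regulators 4 were shared higher and none lower by either tool (2 at an unadjusted p under 0.05), namely DDIT4, SGK1, PRR5L and SESN2. The calls of SGK1 and PRR5L were lost without Control replicate 1 (0.95 and 2.40), that of SGK1 without Control replicate 2 (0.92) and that of PRR5L without PBX3_Cl KO replicate 2 (2.48) and with the median of 11p taken out (2.30). Of 42 apoptosis genes 3 were shared higher and 1 lower, against 5.28% and 2.26% of all tested genes.

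Among 29 NRF2 targets and redox enzymes 8 were called higher, 5 of them shared, and none lower by either tool or at an unadjusted p under 0.05. The shares over all tested genes were 5.92% called higher, 5.28% shared higher and 2.26% shared lower. OSGIN1 stood at 3.86 and 3.88 CPM in Control, 14.5 and 10.4 CPM in PAX6_Ta KO and 7.803 and 9.26 CPM in PBX3_Cl KO (1.41, SE 0.242, adjusted p = 0.0025). The glutathione transferase GSTM3 rose by 2.52 (SE 0.468), malic enzyme ME1 by 0.97 (SE 0.221) and the pentose phosphate enzyme TALDO1 by 0.88. The call of ME1 was lost without Control replicate 1 (0.75) and that of TALDO1, on 11p, without Control replicate 2 (0.73) and with the arm median taken out (0.25). Calls among glycolysis and cholesterol genes were few. Of 34 glycolysis genes and hypoxia targets VEGFA was shared higher and ENO2, neuronal enolase, shared lower (-1.45, SE 0.224), and of 30 genes of cholesterol synthesis and uptake only ELOVL6, a fatty acid elongase, was shared lower (-1.14, SE 0.204).

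Of 42 tested collagens and integrins 9 were shared higher and 2 shared lower, against 5.28% and 2.26% of all tested genes. Several differed in level between the lines. COL15A1 stood at 1.18 and 1.60 CPM in Control, 62.6 and 28.5 CPM in PAX6_Ta KO and 25.4 and 19.9 CPM in PBX3_Cl KO (4.53, SE 0.360, adjusted p = 7.8e-06). COL14A1 stood at 0.283 and 0.396 CPM in Control, 43.3 and 38.6 CPM in PAX6_Ta KO and 6.01 and 3.75 CPM in PBX3_Cl KO (5.38, SE 0.322, adjusted p = 8.9e-07). COL5A1 stood at 0.217 and 0.0594 CPM in Control, 0.458 and 0.418 CPM in PAX6_Ta KO and 59.5 and 107 CPM in PBX3_Cl KO, so that its averaged change of 5.37 came almost wholly from PBX3_Cl KO (9.15, against 1.59 in PAX6_Ta KO), and was 6.61 without Control replicate 1 and 4.78 without Control replicate 2. COL1A2 fell from 48.7 and 133 CPM in Control to 17.8 and 18.8 CPM in PAX6_Ta KO and 1.38 and 1.70 CPM in PBX3_Cl KO (-4.09, SE 0.304, adjusted p = 4.4e-06), a change of -3.20 without Control replicate 2. Markers of fibroblasts were at most 989 CPM in sum, with 471 and 581 CPM in Control and between 578 and 989 CPM in the knockout libraries, and their part in these results was not tested.

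Of 22 cell surface adhesion and complement receptors 4 were called higher and 3 lower, against 5.92% and 3.01% of all tested genes. CD44, a receptor for hyaluronan, stood at 8.49 and 3.98 CPM in Control, 46.3 and 27.4 CPM in PAX6_Ta KO and 22.4 and 16.1 CPM in PBX3_Cl KO (2.09, SE 0.328, adjusted p = 0.0014), and CD59, an inhibitor of complement, rose by 1.21 (SE 0.209). Both lie on 11p, and with the median of that arm taken out CD44 kept its call at 1.46 while CD59 lost it at 0.58, and CD44 was at 2.74 without Control replicate 1. Of 32 actin cytoskeleton and tensin genes 3 were shared higher, against 5.28% of all tested genes. Among them were the tensins TNS1 and TNS4. TNS1, which links integrins to actin, stood at 1.45 and 1.31 CPM in Control, 9.66 and 7.33 CPM in PAX6_Ta KO and 10.0 and 22.3 CPM in PBX3_Cl KO (3.08, SE 0.355, adjusted p = 1.3e-04). ENAH, an actin regulator, met the shared rule with 0.117 and 0.238 CPM in Control and 0.794 and 0.611 CPM in PBX3_Cl KO, but stood at 111 and 104 CPM in PAX6_Ta KO. The efflux pump ABCG2 was the single shared higher gene among 20 ABC drug transporters and rose from 0.949 and 1.19 CPM to between 6.22 and 10.5 CPM (3.05, SE 0.305, adjusted p = 4.8e-05).

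Interferon-stimulated genes moved both ways, with 3 of 31 shared higher and 3 shared lower, against 5.28% and 2.26% of all tested genes. The antiviral membrane proteins IFITM3 and IFITM2 fell by 3.37 (SE 0.209, adjusted p = 1.1e-06) and 2.01 (SE 0.278, adjusted p = 5.6e-04), although their arm, 11p, was raised in both lines. IFITM3 stood at 21.4 and 28.6 CPM in Control, 4.06 and 4.25 CPM in PAX6_Ta KO and 1.497 and 1.29 CPM in PBX3_Cl KO. ISG15 fell by 1.09 (SE 0.228), and MX2, IFIT3 and IFIT2 rose by 3.32, 1.84 and 1.82. Without Control replicate 1 the changes of IFIT3 and IFIT2 were 2.81 and 2.84, and without Control replicate 2 that of MX2 was 3.99. The call of ISG15 was lost without Control replicate 1 (-0.87), that of IFIT3 without Control replicate 2 (1.28), and that of IFIT2 without Control replicate 2 (1.26), PAX6_Ta KO replicate 1 (1.72) and either PBX3_Cl KO replicate (1.77 and 1.84).

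Immediate-early genes also split, with 5 of 30 shared higher and 3 shared lower, against 5.28% and 2.26% of all tested genes. Besides JDP2, the AP-1 gene FOS stood at 4.33 and 5.15 CPM in Control, 19.3 and 19.4 CPM in PAX6_Ta KO and 9.66 and 6.20 CPM in PBX3_Cl KO (1.39, SE 0.242, adjusted p = 0.0029). EGR1 rose by 1.04 (SE 0.235), a call lost without Control replicate 1 (0.75), and KLF4 by 1.75 (SE 0.353). JUN, FOSL2 and KLF6, chosen after their values were seen, fell by 0.87, 1.00 and 0.74, and all 3 calls were lost without Control replicate 1 (-0.31, -0.58 and -0.36). JUN was at 142 and 72.8 CPM in the Control libraries and between 55.4 and 67.1 CPM in the knockout libraries. JUN and KLF6 also lost their calls without PBX3_Cl KO replicate 2 (-0.87 and -0.67), FOSL2 and KLF6 without PAX6_Ta KO replicate 2 (-0.94 and -0.69), and JUN and FOSL2 without PBX3_Cl KO replicate 1 (-0.90 and -0.92), and JUN and FOSL2 with arm medians taken out (-0.72 and -0.75).

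Among chromatin genes, 2 of 43 polycomb and DNA methylation enzymes were shared higher and 1 shared lower, near the 5.28% and 2.26% of all tested genes. The DNA methyltransferase DNMT3A stood at 5.30 and 4.55 CPM in Control, 24.0 and 17.0 CPM in PAX6_Ta KO and 13.9 and 9.80 CPM in PBX3_Cl KO (1.66, SE 0.246, adjusted p = 9.0e-04). TET1, which starts DNA demethylation, stood at 172 and 182 CPM in Control, 73.5 and 69.0 CPM in PAX6_Ta KO and 107 and 83.6 CPM in PBX3_Cl KO (-1.10, SE 0.164, adjusted p = 9.1e-04). Cancer-testis genes, silenced by DNA methylation in most adult tissues, had 3 of 20 tested members shared higher and 4 shared lower. MAGEA1 and PAGE5 rose by 2.78 (SE 0.250) and 3.05 (SE 0.287), while DDX53 fell by 4.19 (SE 0.295), from 9.71 and 9.84 CPM to between 0.209 and 1.36 CPM. Of 19 imprinted genes 3 were shared higher, NDN, SLC22A18 and GRB10, and 1 shared lower, NAP1L5, which stood at 5.55 and 4.95 CPM in Control, 0.125 and 0.133 CPM in PAX6_Ta KO and 4.51 and 3.65 CPM in PBX3_Cl KO. The call of GRB10 (0.71), on 7p, was lost on leaving out any of 3 libraries, either of Control (0.70 and 0.71) or PAX6_Ta KO replicate 1 (0.66), as it was once the median of its arm was taken out (0.09).

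Of 27 tested HOX genes 2 were shared higher and 1, HOXC13, shared lower (-1.28, SE 0.308), a call lost without either Control replicate (-1.26 and -1.31) and without PAX6_Ta KO replicate 2 (-1.18). HOXA3 had 2 and 1 counts in Control, 156 and 204 in PAX6_Ta KO and 5 and 14 in PBX3_Cl KO. HOXA2 had none in Control, 36 in each PAX6_Ta KO library and 2 in each PBX3_Cl KO library. HOXA5 and HOXA6 were called higher in the averaged contrast, but 1 PBX3_Cl KO library had 0 counts for each, so the calls came from PAX6_Ta KO. The other lists with calls were mixed, beside 5.28% shared higher and 2.26% shared lower over all tested genes. Of 29 BCR-ABL signalling and STAT5 target genes 2 were shared higher (CISH and ETV5) and 1 shared lower (SOS1, -1.20, SE 0.168), of 29 heart contraction and calcium handling genes 5 were shared higher and 1 lower, and of 14 epithelial genes 2 were shared higher and 1 lower, EPCAM, which fell by 2.39 (SE 0.207). The calls of CISH (0.75) and ETV5 (0.77) were lost without Control replicate 1 (0.79 and 0.55) and without PAX6_Ta KO replicate 1 (0.68 for both), and that of CISH without Control replicate 2 (0.71). Of 78 ribosomal protein genes 1 was called. No gene of the mitochondrial genome (15 tested) was called by edgeR, while DESeq2 called 2 higher and 3 were higher at an unadjusted p under 0.05.

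Shared higher genes were concentrated on 2 chromosome arms. Of the 894 protein-coding shared higher genes 159 lay on 7p or 11p (17.8%), which held 3.55% of the tested protein-coding genes, and of the 343 shared lower ones 7 did (2.04%). On 11p the median log2 fold change of 271 genes was 0.63, with 0.62 in PAX6_Ta KO and 0.64 in PBX3_Cl KO, and on 7p that of 207 genes was 0.62, with 0.65 and 0.59. All 4 knockout libraries were above both Control libraries for 63.5% of the genes of 11p and 64.3% of those of 7p, and 92 and 67 genes (33.9% and 32.4%) were shared higher. Over all 13447 protein-coding genes placed on an arm the median was 0.02.

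The rise was even along each arm. In 5 equal runs of genes from the telomere to the centromere the medians of 11p were between 0.58 and 0.71 in the averaged contrast and those of 7p between 0.52 and 0.71. It was not seen beyond the centromere. The 5 runs of 11q had medians between -0.06 and 0.08 in the averaged contrast, and on 7q the lines went apart, with medians between -0.45 and 0.02 in PAX6_Ta KO and between 0.28 and 0.44 in PBX3_Cl KO. By library, the median of log2(CPM + 0.5) over the genes of 11p was 0.04 and -0.04 in Control relative to the Control mean, 0.58 and 0.52 in PAX6_Ta KO and 0.60 and 0.53 in PBX3_Cl KO. On 7p it was 0.02 and -0.02 in Control, 0.63 and 0.53 in PAX6_Ta KO and 0.59 and 0.51 in PBX3_Cl KO. On either arm all 4 knockout libraries were thus close to each other and well apart from Control.

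The counts of shared higher genes on these arms changed with the libraries used. Without Control replicate 1 there were 59 on 11p and 38 on 7p, and without Control replicate 2 there were 47 and 34. The count on 7p was 39 without PAX6_Ta KO replicate 1, 107 without PBX3_Cl KO replicate 2 and 102 with the replicate block. With the knockout libraries as 1 group they were 19 and 5. When the median of each gene's own arm was taken out of each line the counts were 18 and 15. Whether the cells carried more copies of these arms was not measured. The arms with the lowest medians were 4q (-0.31), 2p (-0.28) and 5p (-0.25). The fall on 4q and 2p was mainly in PAX6_Ta KO (-0.50 and -0.49, against -0.11 and -0.02 in PBX3_Cl KO), and that on 5p was -0.34 and -0.17.

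**Figure D4:**
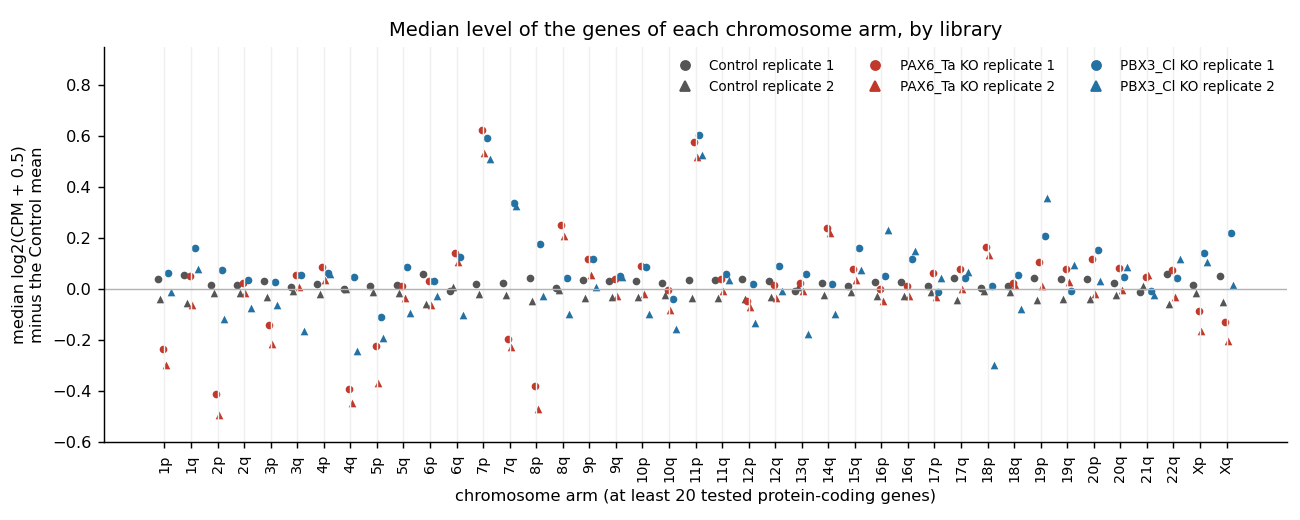
Median over the tested protein-coding genes of each chromosome arm of log2(CPM + 0.5) minus the Control mean (y axis), by arm (x axis) and library, with Control grey, PAX6_Ta KO red, PBX3_Cl KO blue, circles for replicate 1 and triangles for replicate 2. On 7p and 11p all 4 knockout libraries stand between 0.51 and 0.63, apart from both Control libraries.

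Close to the threshold, the last genes to count as shared were ZNF12 (log2 fold change 0.61, adjusted p = 0.0499) and KCNJ11 (0.92, adjusted p = 0.04999), and the first to miss it were PARP14 (0.59, adjusted p = 0.0501) and RBMS2 (1.61, adjusted p = 0.0502). ZNF12 stood at 19.3 and 18.9 CPM in Control and between 24.8 and 32.3 CPM in the knockout libraries, and PARP14 at 66.2 and 54.0 CPM and between 68.1 and 118 CPM.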

How the data were processed

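RNA of Control, PAX6_Ta KO and PBX3_Cl KO cells was made into Collibri Stranded libraries. The authors trimmed reads with cutadapt (version 3.4 per the labels), aligned them to GRCh37 with STAR and deposited raw read counts per gene; no source used here gives other versions or the strand setting of the counting. The deposited counts were whole numbers and were used unchanged. Of the 52088 entries 17198 had no count. The depth of 45912044 to 60908470 counts per library limits what can be seen in genes near 0, and intervals and floors cover counting error only. Columns of 4 other samples and the authors' comparison tables (fold changes on the log2 scale with their p-values) were not used.

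Counts were tested with edgeR (version 4.0.16, in R 4.3.3): filterByExpr, TMM factors, a 3-group quasi-likelihood fit (common biological coefficient of variation 0.215), the contrast of the mean of the knockout groups with Control, and Benjamini-Hochberg adjustment over 20746 genes at 0.05. The scripts were tested on simulated data, in which 29.9% of genes changed by a log2 fold of 1 in both lines were called. At a log2 fold of 2 the share was 88.3%, and 7.44% of all calls were genes left unchanged. Lists without calls may therefore hold changes that were missed. CPM were TMM-scaled. Genes at 0 counts in a group were given a bound against 3 counts over that group. Samples were grouped by the genotype labels. The 2 Control, 2 PAX6_Ta KO and 2 PBX3_Cl KO libraries of a group differed by far more than counting noise (chi-square divided by its degrees of freedom was 47.1, 38.8 and 121). Replicate numbers come from the labels, and across genes the shift from replicate 1 to 2 in one group correlated with that in each other group (r = 0.389, 0.210 and 0.379, genes not being independent), so the numbers were taken to pair the samples and a fit with the replicate as a block was an alternative.

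The genes named are, per direction, the 12 shared genes with the largest smaller-of-2-lines fold change at 1 CPM or more, the 6 such genes at 100 CPM or more, up to 6 at 0 counts in one group and at least 10 in each other library, and up to 4 shared genes of each of 38 lists by adjusted p. The comparison, the lists and this rule were chosen with earlier results of these data known. Gene positions are from GENCODE v44 lifted to GRCh37, promoters and microRNAs from RefSeq. Alternatives were DESeq2 (version 1.42.0), RLE and upper-quartile factors, other filters on low counts, the replicate block, 1 knockout group, arm medians taken out, and leaving out each library. Results of some genes are not reported here, although the counts of genes include them.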

Additional observations from a re-analysis of the deposited data

Results flagged for a closer look

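Of 150 named genes 51 met the shared rule and were called different between the lines. The test was the direct one of PAX6_Ta KO against PBX3_Cl KO in the same edgeR fit (adjusted p from 4.9e-08 to 0.0435). Of the 51 genes 33 were higher and 18 lower than Control. The size of the change was larger in PAX6_Ta KO for 31 and in PBX3_Cl KO for 20. The shared rule does not require a call in each line, and several of these genes were not called in both lines when each was set against Control. CA1 was at -0.26 in PBX3_Cl KO (adjusted p = 0.679) and PHF19 at 0.20 in PAX6_Ta KO (adjusted p = 0.642) in the edgeR fit. All values are log2 fold changes in PAX6_Ta KO minus those in PBX3_Cl KO. With 2 libraries a group no single library was tested for standing apart.

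Among collagens and cytoskeleton genes the differences were -7.56 for COL5A1, 3.07 for COL14A1, 3.56 for COL1A2, 3.68 for COL1A1, 3.39 for TNS4 and 7.25 for ENAH. Among developmental and brain genes they were -4.84 for KIF1A, -1.88 for CDH12, 2.93 for GBX2, 3.94 for HOXA2, 4.06 for HOXA3, 3.18 for ZFHX4-AS1 and 4.61 for ZFP42. The heart genes ACTC1 and RYR2 differed by 2.55 and 2.96.

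Histone genes differed by 4.83 (H2AC1) and 4.90 (H2BC1), with the deeper fall in PBX3_Cl KO. Among the other strongly changed genes PTPN7 differed by 1.32, GPSM3 by 1.10, CYB5R2 by 1.69 and JDP2 by 2.99. The imprinted genes NAP1L5 and NDN differed by -4.96 and 2.497.

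Erythroid genes differed by -3.40 (CA1), 2.42 (CA2) and 1.02 (HBD). Lymphoid, progenitor and epithelial genes differed by -3.11 (RAG2), -1.22 (RAG1), 1.77 (CD3G), -1.14 (MECOM), -3.07 (EPCAM) and 1.92 (EHF).

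Cancer-testis genes differed by -2.07 (DDX53), -1.58 (PAGE5), -1.37 (GAGE1), -1.28 (MAGEA1), -0.76 (MAGEB2) and 2.80 (SSX2). Stress, interferon and signalling genes differed by -1.23 (ALDH1L2), 0.80 (WARS1), 0.87 (FDXR), 1.98 (GSTM3), 1.28 (FOS), 1.58 (IFITM3), 2.29 (MX2), -2.38 (TNFSF10), 2.03 (PRR5L) and -0.91 (SOS1). The fatty acid elongase ELOVL6 and the polycomb protein PHF19 differed by -1.07 and -1.14.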

How the results depend on the processing

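No named gene changed its direction in any setting that could be computed. All 150 kept their calls with the replicate block, with RLE factors and with no filter on low counts. Calls were lost by 3 with DESeq2, 7 with upper-quartile factors, 20 with arm medians taken out and 97 with the knockout libraries as 1 group. Under the stricter filter 131 kept their calls, 5 lost them and the remaining named genes were not tested. Leaving out a library cost 30 calls (Control replicate 1), 31 (Control replicate 2), 16 and 7 (PAX6_Ta KO replicates 1 and 2) and 12 and 8 (PBX3_Cl KO replicates 1 and 2). DESeq2 kept 1021 of the 1096 shared higher and 411 of the 469 shared lower genes.

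Treating the knockout libraries as 1 group gave 227 genes called higher and 80 lower, of which 227 and 80 were shared, with 8 shared higher ATF4 targets, 2 erythroid genes, 19 genes of 11p and 5 of 7p. With the pairing by replicate block 1072 genes were called lower, 756 were shared lower and 102 genes of 7p were shared higher. With arm medians taken out 18 genes of 11p and 15 of 7p were shared higher. Leaving out 1 library gave 791 to 1430 genes called higher, 436 to 992 called lower, 738 to 1326 shared higher, 364 to 840 shared lower and 303 to 547 shared genes that differed between the lines. The shared higher genes ranged from 47 to 127 on 11p, from 34 to 107 on 7p, from 4 to 9 among erythroid genes and from 13 to 18 among ATF4 targets, and from 4 to 9 megakaryocyte genes were shared lower. The fit with 1 group puts the differences between the lines into the spread, and the cause of the other shifts was not tested. An arm with 1 library left was assumed to vary like the other groups. Depth limits genes near 0 counts, for which bounds were given.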
